A study of Oryza sativa with 6 samples.

Results

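The regions described are the stretches of rice (Oryza sativa) chromatin that carried acetylated lysine 9 of histone H3 (H3K9ac) in uninfested leaves, as called in both of the 2 control libraries. They were found by merging the peak lists of the control libraries on the 12 nuclear chromosomes wherever calls overlapped by at least 1 bp, and by keeping the merged intervals that both lists called. Of 6569 merged control regions, 3174 (48.3%) were called in both lists and are termed shared regions. The lists of all 6 libraries in the series merged into 17468 regions.

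The study mapped H3K9ac in leaves of seedlings aged 20 days that were left alone or exposed for 3 h or 12 h to feeding caterpillars of Spodoptera frugiperda (fall armyworm), and each group has 2 libraries. Only the uninfested group is used here: untreated leaves of greenhouse-grown seedlings, from which leaf nuclei were taken and profiled by CUT&Tag, in which an antibody tethers a transposase that cuts and tags nearby DNA. The labels give no cultivar, and they do not say whether the 2 libraries came from separate plants, so the spread between them may be technical. All cell types of the leaf were pooled in each library, and a weaker signal in every cell cannot be told apart from a signal in fewer cells. Coordinates refer to the IRGSP-1.0 genome build. The gene table at hand is on another assembly, so no region was tied to a gene and the leaf label was not checked against marker genes. With 1 group of 2 libraries there is no comparison of groups, and every value below is a description.

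H3K9ac is laid down by histone acetyltransferases and removed by histone deacetylases. Acetylation neutralises the charge of the lysine, loosens the contact of the histone tail with DNA, and is read by proteins with bromodomains. In plants the mark is concentrated at the beginnings of transcribed genes, over the promoter and the first nucleosomes of the gene body, and heterochromatin around centromeres, rich in transposons and poor in genes, carries little of it.

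The control lists held 5150 peaks in replicate 1 and 5644 in replicate 2, of which 5079 and 5577 lay on nuclear chromosomes. The lists repeat a stretch for each of its summits, and collapsing the repeats left 4671 and 5174 nuclear regions. They covered 3043 kb and 3490 kb. Read totals were not used here, and depth was taken from the deposited values. The fold (summit coverage over local background, each plus 1) and the −log10 p of a peak together fix its summit coverage as a whole number of fragments. The median nuclear region had a summit coverage of 16 fragments in replicate 1 and 15 in replicate 2. The lowest local background of a list, taken as its genome background, was 2.43 and 2.0 fragments. A local background may include the region's own fragments, and how much of it they make up was not tested. At such coverage a few fragments decide whether a weak region passes the threshold, which corresponds to a q of 0.05.

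Shared regions made up 69.4% of the regions of replicate 1 and 62.0% of those of replicate 2 (mean 65.7% ± 5.18, SD, n = 2). Another 1431 regions were called in replicate 1 alone and 1964 in replicate 2 alone. Regions seen once were weaker and narrower than shared ones. Requiring a call in both lists by itself selects for stronger regions. Shared regions had a median fold of 3.80 in replicate 1 and 3.99 in replicate 2, and single-list regions had 3.40 and 3.56. The median −log10 q of shared regions was 4.65 and 4.90, against 2.97 and 3.14 for single-list regions. The median merged width was 839.5 bp for shared regions, against 446 bp and 474 bp for regions of replicate 1 alone and replicate 2 alone. A merged interval of 2 calls is at least as wide as either call by construction. Within each list, the shared regions still had median called widths of 667 bp and 709 bp. A region seen in one list alone fell short of the other list's threshold, which does not show that the mark was absent there.

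How often a region was found again varied with its strength in the list that called it. In the lowest decile of fold, 50.5% of the regions of replicate 1 and 47.5% of those of replicate 2 were also in the other list. In the highest decile these shares were 92.8% and 90.1%. Summit coverage separated the regions further than fold did. Regions in the lowest decile of coverage, at 9 to 11 fragments in replicate 1 and 8 to 10 in replicate 2, were found again in 33.8% and 29.2% of cases. Regions in the highest decile, at 29 fragments or more in replicate 1 and 27 or more in replicate 2, were found again in 98.9% and 98.6%. The plot of recovery by strength shows the rise for both lists.

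**Figure D1:**
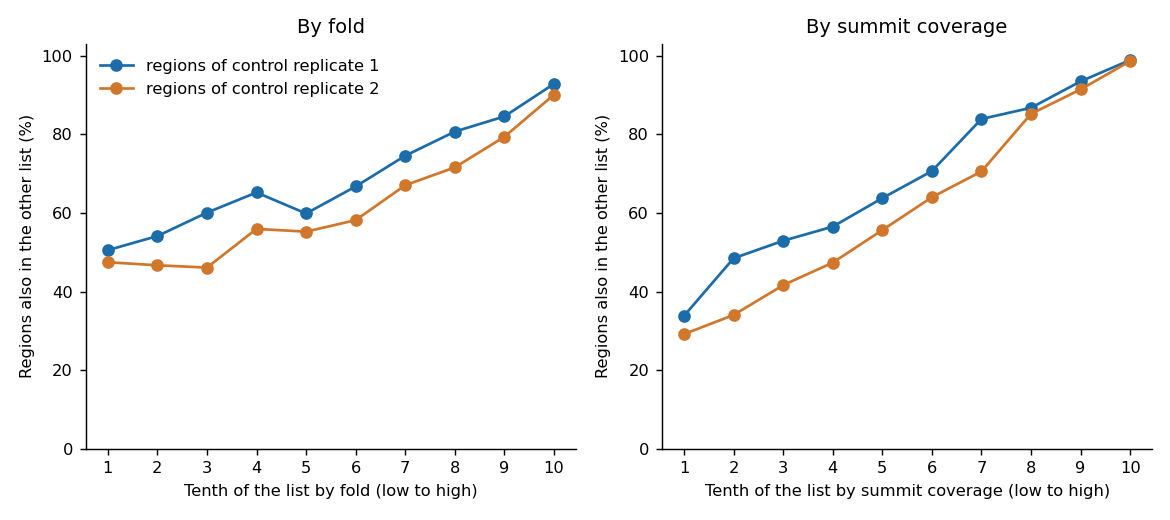
Share of the regions of each control list that the other control list also called (y axis, %), by deciles of the list from low to high fold (left) or summit coverage (right); blue is replicate 1 and orange replicate 2. Recovery by coverage runs from 33.8% and 29.2% in the lowest decile to 98.9% and 98.6% in the highest.

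Most shared regions were the size of a few nucleosomes. The quartiles were 678 bp and 1085 bp, the narrowest was 382 bp and the widest 3037 bp. The 181 regions over 1500 bp made up 5.70%. In total the shared regions covered 2885 kb, which is 0.774% of the 373 Mb between the first base of each chromosome and its last control region. The bases called in both lists had a median of 534.5 bp per region, and the median region had 70.6% of its merged width in both calls. Called widths in the lists had a rank correlation of 0.61 across the 3174 regions. These regions share 2 libraries and are not independent replicates. Of the single-list regions, 34.0% in replicate 1 and 26.3% in replicate 2 were at most 400 bp wide, close to the narrowest call of each list (373 bp and 382 bp). Among shared regions 10.1% and 7.21% were called that narrow.

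Wider regions had higher summits. Shared regions up to 600 bp wide had median summit coverages of 15 and 14 fragments in replicates 1 and 2, and those over 1500 bp had 30 in each. Their median folds differed less, at 3.57 and 3.73 for the narrow class and 4.07 and 4.23 for the wide class. The rank correlation of width with fold rank was 0.22.

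**Figure D2:**
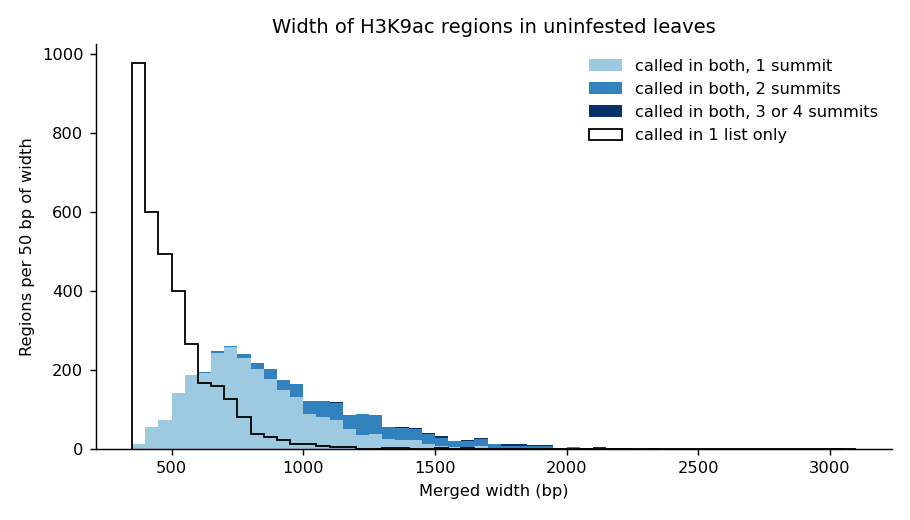
Number of regions per 50 bp of merged width (y axis) by merged width (x axis, bp); filled bars are shared regions, stacked by the higher summit count of the 2 lists, and the line is regions called in 1 list only. Regions with 1 summit have a median width of 770 bp, those with 2 summits 1225 bp, and single-list regions crowd against the narrowest callable width.

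A shared region had several summits where a list gave more than 1 local maximum of coverage within the merged interval. Summits were added up over all calls of a list inside it. In 98 shared regions at least 1 list had separate calls that the merging joined, so part of the counts below comes from merging. In replicate 1, 429 shared regions (13.5%) had several summits, and in replicate 2 there were 385 (12.1%), a mean of 12.8% ± 0.980 (SD, n = 2). The lists often disagreed on which: 649 regions (20.4%) had several summits in at least 1 list and 165 (5.20%) in both. The summit count was the same in both lists for 2661 regions, of which 2525 had 1 summit in each. Width went with summit number. By the higher count of the 2 lists, 2525 regions with 1 summit had a median width of 770 bp, 602 with 2 summits had 1225 bp, and 46 with 3 summits had 1759 bp. Several summits were seen in 0.211% of shared regions up to 600 bp wide and in 83.4% of those over 1500 bp. Fold had no steady order with summit number, with medians of 3.78 and 3.97 for 1 summit, 3.91 and 4.14 for 2 summits, and 3.66 and 3.83 for 3.

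Neighbouring summits inside a single call lay about 0.5 kb apart, over all nuclear regions of a list and not only the shared ones. Their median distance was 502 bp over 408 pairs in replicate 1 and 528 bp over 403 pairs in replicate 2 (mean 515 ± 18.4, SD, n = 2). The quartiles of the distances were 409 and 613 bp in replicate 1 and 430 and 624 bp in replicate 2. The summit of highest fold in a region is termed its highest summit. In shared regions it lay at nearly the same place in both lists, with a median offset of 118 bp. The 2 summits were within 100 bp of each other in 44.2% of regions and within 200 bp in 69.5%. Where both lists gave 1 summit the median offset was 106 bp and where either gave several it was 210 bp. The highest summit sat near the middle of the merged region, at a median of 49.6% of its width from the start in replicate 1 and 48.9% in replicate 2. In 87.3% and 89.4% of regions it fell in the central part of the region, between 25% and 75% of the width. The start is the lower coordinate, with no gene direction, so these medians cannot show a lean relative to genes.

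The region with the most summits was on chromosome 3 from 5590158 to 5592196, with 4 summits in replicate 1 and 3 in replicate 2 over 2039 bp. Its folds were low, at 3.16 and 3.17, over local backgrounds of 10.1 and 10.4 fragments. The widest region, on chromosome 2 from 7221398 to 7224434, had 3 summits in each list, folds of 3.21 and 3.10 and summit coverages of 58 and 57 fragments. Its local background was 17.4 and 17.7 fragments, against medians of 4.07 and 3.55 over all shared regions. The part of the region's own fragments in this background was not tested. Another pair of regions had 3 summits in both lists, on chromosome 1 from 5512231 to 5514420 and on chromosome 7 from 27677505 to 27679282. The next widest were chromosome 11 from 6383279 to 6385584 (2306 bp), chromosome 8 from 26767003 to 26769241 (2239 bp), chromosome 1 from 25696908 to 25699131 (2224 bp) and chromosome 2 from 26852107 to 26854328 (2222 bp). Each had 2 summits in one list and 3 in the other. Folds in these 4 regions were 3.13 to 4.65 in replicate 1 and 3.19 to 4.18 in replicate 2, on both sides of the medians of all shared regions.

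Fold ranked the shared regions alike in the 2 lists, but loosely. The rank correlation of the highest fold was 0.52 across the 3174 regions, and 0.45 to 0.57 within single chromosomes. Summit coverage had a rank correlation of 0.74 and local background 0.91. Local background, the denominator of the fold, was thus the more alike of the 2 quantities between libraries. Summit coverage is a count at a single position and the background is an average, so the 2 correlations are not like for like. The fold was higher in replicate 2 at 1847 regions (58.2%), with a median log2 ratio of replicate 2 over replicate 1 of 0.06 and an SD of 0.29. The 2 folds were within 1.25 times of each other at 73.4% of regions and over 1.5 times apart at 165. Requiring a call in both lists bounds how far the folds can part.

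Agreement was also read within terciles, whose low and middle classes span a narrow range of folds, which by itself lowers a correlation. In the lowest tercile of replicate 1 fold the rank correlation with replicate 2 was 0.21, in the middle tercile 0.11 and in the highest 0.47. Sorted by replicate 2 instead, the terciles gave 0.25, 0.12 and 0.47. The median fold in replicate 2 was 3.57, 3.96 and 4.65 over the terciles of replicate 1. Of the 50 regions with the highest fold in each list 41 were the same, of the 100 highest 58 were the same, and of the 317 highest, the top decile, 158 (49.8%).

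**Figure D3:**
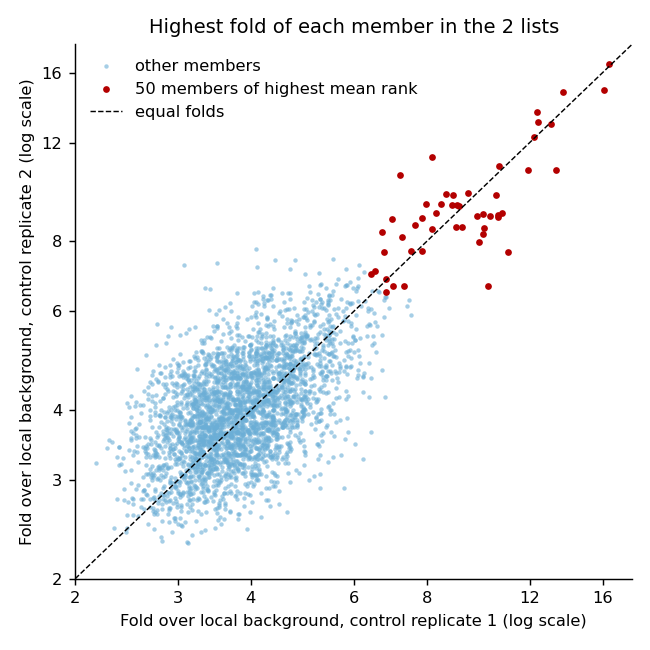
Highest fold over local background of each of the 3174 shared regions in control replicate 1 (x axis) and control replicate 2 (y axis), both on log scales; red points are the 50 regions with the highest mean rank of fold. The cloud of most regions is broad (rank correlation 0.52 over all regions), and the red points extend along the line of equal folds to 16.4 and 16.6.

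The strongest region was on chromosome 8 from 22325246 to 22326103, with folds of 16.4 in replicate 1 and 16.6 in replicate 2. Its summit held 142 and 134 fragments, against medians of 18 in each list over all shared regions. Chromosome 6 from 55922 to 56692 followed at 16.1 and 14.9. On chromosome 10, the interval 10919108 to 10919804 reached 13.7 and 14.8, and its neighbour from 10910302 to 10911011 reached 12.4 and 13.6. Another strong region lay within 2 kb of the first base of chromosome 10, from 899 to 1635, with folds of 13.0 and 12.9. Chromosome 2 from 28720948 to 28721981 had the highest coverage of any shared region, 232 and 226 fragments. Its folds were 12.4 and 13.1 over a raised local background of 17.8 and 16.3 fragments, which may include its own fragments. Chromosome 2 from 14284778 to 14285445 (folds 13.3 and 10.7) and chromosome 11 from 12328395 to 12329081 (12.2 and 12.3) completed the 8 strongest. These 8 were between 668 and 1034 bp wide and all had 1 summit in both lists.

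The 50 regions of highest mean rank often lay near each other, a pattern looked at after the values were seen. Of these 50, 24 had another of the 50 within 50 kb, in 8 groups. None of the regions ranked 51 to 100 had another of that class within 50 kb, and 4 of those ranked 101 to 150 did. The largest group held 7 of the 50, on chromosome 10 from 10806829 to 10919804, where 8 shared regions lay within 113 kb. The folds of the 7 were 7.87 to 13.7 in replicate 1 and 8.25 to 14.8 in replicate 2. Groups of 3 lay on chromosome 1 from 33529321 to 33579322, on chromosome 8 from 9253383 to 9275555 and on chromosome 11 from 12278484 to 12329081. Pairs lay on chromosomes 2, 6 and 12, with 2 of them on chromosome 12. No genome sequence of this build was used here, so whether the groups or the 8 strongest regions hold repeated DNA or copies of organelle DNA, where reads may be placed ambiguously, was not tested. Their folds cannot be read as acetylation alone.

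The 50 strongest regions, chosen by fold, were compact, although width rose with fold over all shared regions. From low to high, median widths were 778.5, 832.5 and 920 bp over terciles of replicate 1 fold. Over terciles of replicate 2 fold they were 770, 842 and 927 bp. The median width of the 50 was 738.5 bp, against 842 bp for all other shared regions. Of the 50, 5 (10%) had several summits in either list, against 20.6% of the others. Their median local background was 4.03 and 3.38 fragments in replicates 1 and 2, against 4.07 and 3.55 for the others, so their higher folds went with higher summits. Median summit coverage was 44.5 and 38.5 fragments, against 18 and 17. The region at the edge of the class had folds of 6.81 and 6.50, and the next one outside had 6.26 and 7.05.

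Shared regions were spread thinly, with long and uneven spaces between them. The median gap between neighbours was 64.5 kb, the quartiles were 24.6 and 142 kb, and the mean was 117 kb. The coefficient of variation of the 3162 gaps was 1.37, and for all regions of each list it was 1.35 and 1.29. Gaps over 500 kb occurred 106 times, and these gaps took up 21.2% of the chromosome spans. The smallest gap was 79 bp and the largest 1604926 bp. Within 50 kb of a shared region there was another in 66.4% of cases, within 100 kb in 85.6% and within 500 kb in 99.6%.

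Tight clusters were few. A gap under 5 kb joined 240 shared regions (7.56%) into 118 runs, of which 114 were pairs and 4 held 3 regions. No run was longer. The pairs had a median span of 3924 bp. The runs of 3 lay on chromosome 7 from 3240149 to 3247290, chromosome 9 from 17421529 to 17428630, chromosome 8 from 23079992 to 23086919 and chromosome 1 from 12918093 to 12924855. The pair with the longest span, 7637 bp, was on chromosome 1 from 30453744 to 30461380. The 12 regions in the runs of 3 had folds of 2.69 to 4.52 in replicate 1 and 2.62 to 4.79 in replicate 2. On chromosome 9 the local background of the 3 regions was 9.06 to 11.7 fragments in replicate 1 and 9.02 to 12.0 in replicate 2, against medians of 4.07 and 3.55 over all shared regions. In each list 1 of the 12 had a fold above the median of all shared regions, and it was the same one, the region from 23086187 to 23086919 on chromosome 8.

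The distances between summits had a step at 5 kb in both lists. Over all nuclear regions of a list, taking the highest summit of each region and leaving out further summits of the same region, neighbouring summits 2 to 5 kb apart numbered 77 in replicate 1 and 98 in replicate 2. In the next 3 kb, from 5 to 8 kb, there were 241 and 292, which is 3.13 and 2.98 times as many. Summits closer than 1.5 kb were frequent again, at 100 and 81 pairs between 0.5 and 1 kb and 43 and 42 between 1 and 1.5 kb. Among the shared regions themselves 40 neighbouring pairs had summits under 2 kb apart, 44 lay 2 to 5 kb apart and 135 lay 5 to 8 kb apart.

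The local background that the fold is measured against moved at the same distance. Where the nearest summit was 2 to 5 kb away, the median local background was 5.78 fragments in replicate 1 and 5.46 in replicate 2. Where it was 5 to 8 kb away, the background was 3.95 and 3.40. Regions with a neighbour at 2 to 5 kb had higher summits, with median coverages of 21 and 21 fragments, against 17 and 16 at 5 to 8 kb, but lower folds, at 3.28 and 3.39 against 3.70 and 3.77. The window over which the peak caller averaged its background is not stated in the labels or files. The part of the local background in the scarcity of neighbours at 2 to 5 kb was not tested.

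**Figure D4:**
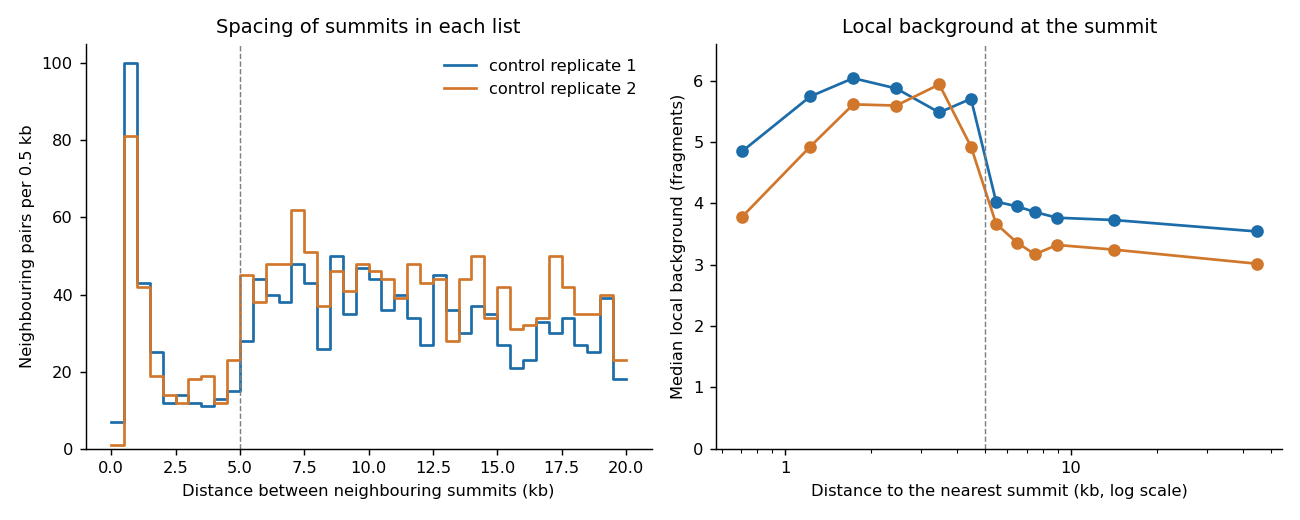
Left, number of neighbouring pairs of highest summits, 1 per region, per 0.5 kb of distance (y axis) by the distance between summits (x axis, kb) in each control list; right, median local background in fragments (y axis) by the distance to the nearest summit (x axis, kb, log scale). Blue is replicate 1, orange is replicate 2 and the dashed line marks 5 kb, where pairs become 3.13 and 2.98 times as frequent as over the 3 kb before it and the background is lower.

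Density varied between chromosomes and along each of them. Chromosome 2 had the most shared regions per Mb, 10.9, followed by chromosome 3 with 10.7 and chromosome 1 with 9.85. Chromosomes 11 and 12 had the fewest, 6.27 and 6.47, and the mean over all spans was 8.51. Counted in each list separately, chromosome 3 came first with 16.7 ± 1.01 regions per Mb, against 16.0 ± 1.55 on chromosome 2 (SD, n = 2 each). Chromosome 3 was higher in both lists, at 16.0 against 14.9 in replicate 1 and 17.4 against 17.1 in replicate 2. Chromosome 11 had 10.2 ± 0.877 regions per Mb and chromosome 12 had 10.6 ± 0.797. Chromosome 12 was higher in both lists, at 10.0 against 9.58 in replicate 1 and 11.1 against 10.8 in replicate 2. Both differences were smaller than the SDs. These SDs include the higher count of replicate 2 on every chromosome, so they do not measure the spread of a difference between chromosomes. Median width was 810 to 881 bp over the 12 chromosomes. Median fold was 3.69 to 4.08 in replicate 1 and 3.86 to 4.33 in replicate 2, with chromosomes 10 and 12 the highest in both lists.

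The 367 full windows of 1 Mb held a median of 8 shared regions, with quartiles of 5 and 11. The coefficient of variation over windows was 0.57, and it was 0.50 and 0.47 for all regions of replicates 1 and 2. Window counts of the 2 lists had a rank correlation of 0.89. The densest window, chromosome 2 from 5000001 to 6000000, held 24 shared regions, out of 26 regions in replicate 1 and 29 in replicate 2. The first Mb of chromosome 2 held 23. Chromosome 1 from 30000001 and chromosome 10 from 20000001 held 22 each, and chromosome 1 from 7000001 and chromosome 2 from 28000001 held 21 each. In all, 9 windows held 20 or more.

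At the other end, 6 windows had no shared region. In the window from 17000001 to 18000000 on chromosome 4, neither list called anything. Chromosome 9 from 9000001 and chromosome 12 from 15000001 had none in replicate 1 and 2 in replicate 2. Chromosome 10 from 12000001 had 2 and 3 regions, and on chromosome 8 the window from 13000001 had 3 in each list and that from 15000001 had 6 and 5, with no overlap between the lists. The last of these windows was thus not empty: each library had calls there at positions the other did not call.

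The longest gap of each chromosome measured between 731 and 1605 kb. A gap holds no shared region but can hold regions called in 1 list only. The longest of all, 1605 kb, ran from 14739183 to 16344108 on chromosome 8. The window from 15000001 inside it held 6 regions in replicate 1 and 5 in replicate 2. On chromosome 12 the stretch from 14503815 to 16092468 spanned 1589 kb. On chromosome 4 that from 16686205 to 18168945 spanned 1483 kb, and on chromosome 9 that from 8667819 to 10128902 spanned 1461 kb. The full windows inside these gaps held 0 regions in replicate 1. In replicate 2 they held 2 on chromosome 12, 0 on chromosome 4 and 2 on chromosome 9. Chromosome 5 from 11315450 to 12605243 had 1290 kb, chromosome 3 from 15218964 to 16408327 had 1189 kb, and chromosome 1 from 19477789 to 20663222 had 1185 kb. On chromosomes 7 (8515651 to 9565659), 6 (18165283 to 19135561) and 2 (16831384 to 17562053) the longest gaps were 1050, 970 and 731 kb. In these 10 chromosomes the stretch lay in the interior. Chromosome 11 differed, with its longest gap of 1174 kb from 27654647 to 28828871, near its far end. On chromosome 10 the longest gap of 1043 kb ran from 2889464 to 3932945, near its beginning. Centromere positions were not used here.

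**Figure D5:**
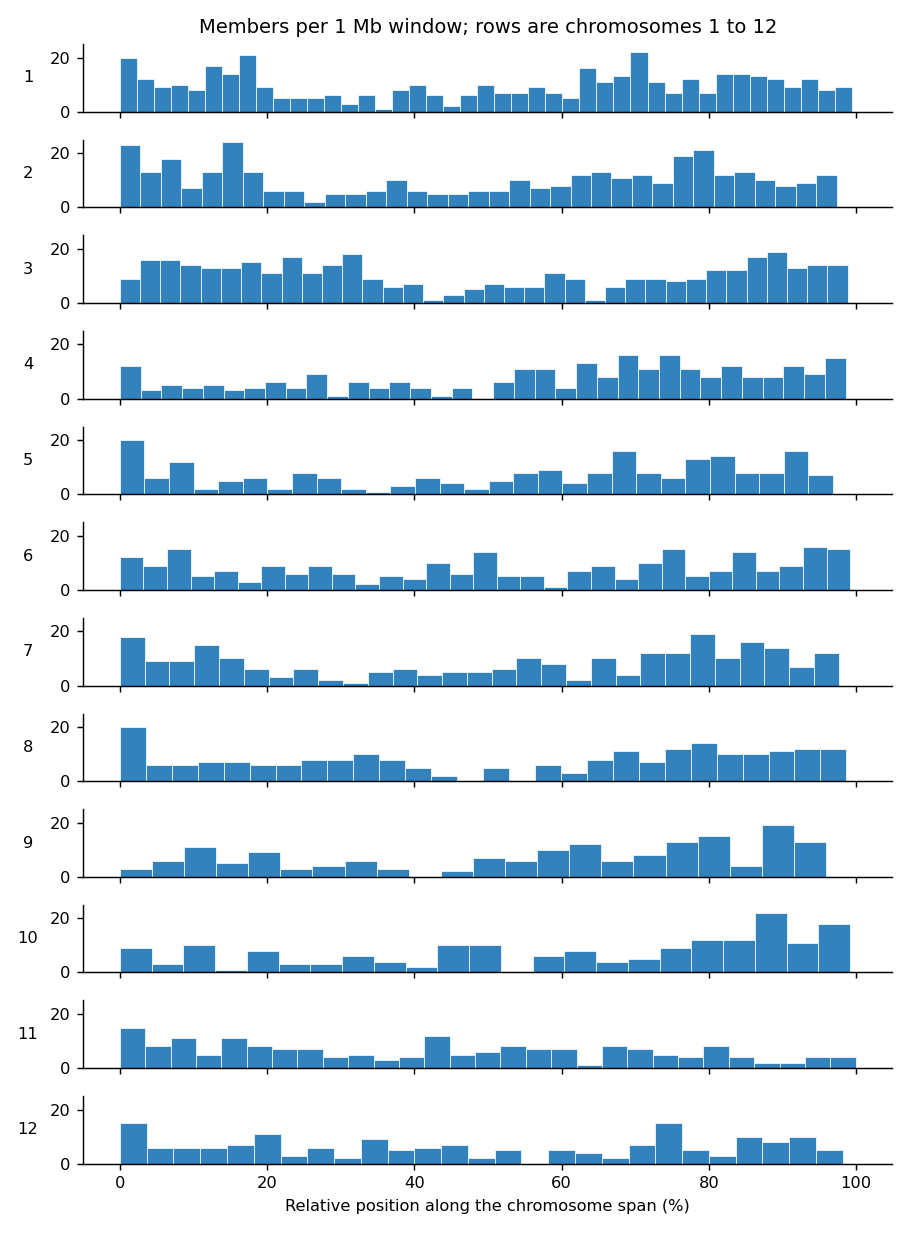
Shared regions per full 1 Mb window (y axis) by relative position along each chromosome span (x axis, %), with 1 row for each of chromosomes 1 to 12 in order. Counts run from 0 to 24, the first window of chromosome 2 holds 23, and chromosomes 4 and 9 hold 70.1% and 70.9% of their regions beyond the midpoint of the span.

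Shared regions were split unequally about the midpoint of some chromosomes. On chromosome 4, 190 of 271 shared regions (70.1%) lay beyond the midpoint of the span, and on chromosome 9 there were 127 of 179 (70.9%). Chromosomes 5 and 10 had 63.7% and 64.2% beyond it. Chromosome 11 leaned the other way, with 106 of 182 regions (58.2%) before the midpoint. Chromosomes 3 and 12 were close to even, at 51.4% and 51.1% before it. In all, 9 of the 12 chromosomes had more shared regions beyond the midpoint than before it.

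Density was highest near the chromosome ends and lowest far from them. Within 2 Mb of either end of the span there were 12.4 shared regions per Mb, from 2 to 5 Mb there were 9.58, from 5 to 10 Mb 8.47, and beyond 10 Mb 6.55. Both lists showed this order, with 17.4 and 19.7 regions per Mb in replicates 1 and 2 within 2 Mb of an end and 10.0 and 10.9 beyond 10 Mb. Width and fold moved little with it. Median width was 843 bp in the outer class and 802 bp in the inner class, and median folds were 3.66 and 3.87 in the outer class and 3.86 and 4.08 in the inner one. The first Mb of a chromosome held 3 to 23 shared regions with a median of 15, and on 10 of the 12 chromosomes it held more than that chromosome's median window. Chromosomes 3 and 9 were the exceptions, with 9 and 3 regions. The last full Mb held more than the median window on 9 chromosomes, equalled it on chromosome 1 with 9 regions, and held fewer on chromosomes 11 and 12, with 4 and 5 against a median of 6.

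On 7 of the 12 chromosomes the first shared region began within 5 kb of the first base. Chromosomes 2 and 5 had a call that began at base 1, ending at 526 with folds of 7.19 and 10.5 and at 499 with folds of 5.24 and 5.66. Chromosome 8 had its first region from 856 to 1582 with folds of 8.45 and 9.33, and chromosome 4 from 1003 to 1810 with folds of 6.51 and 7.07. These sit above the median folds of 3.80 and 3.99 over all shared regions. How the local background was averaged where a chromosome begins is not given, and its part in these folds was not tested. Chromosomes 1 and 11 began with weaker regions, from 1005 with folds of 4.08 and 3.31 and from 3577 with folds of 4.08 and 4.72. A telomere consists of short tandem repeats, and how reads from such repeats were placed is not given in the sources used here.

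Regions in dense windows differed slightly from those in sparse ones. In the 39 windows with 15 or more shared regions the median width was 874 bp and 24.3% had several summits. In the 74 windows with at most 4 these values were 800 bp and 16.2%. Folds ran the other way, at 3.69 and 3.96 in dense windows and 3.86 and 4.14 in sparse ones. Local background was 4.44 and 3.93 fragments in dense windows, against 3.47 and 2.90 in sparse ones, and summit coverage was 19 and 19 against 17 and 15. Summits in dense windows were thus a little higher and were measured against a higher background, whose part in the lower fold was not tested.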

How the data were processed

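H3K9ac was profiled by CUT&Tag in rice leaves, and the peak lists of the 2 uninfested libraries were analysed. The submitters' processing notes name the genome build IRGSP-1.0 and the tools MACS2 2.1.0, Bowtie 1.1.2, Trimmomatic 0.33 and bcl2fastq 2.17. No source here gives their settings, any input control or the handling of duplicate or multiply mapped reads. The authors deposited 1 list per library, not pooled, with start, end and summit of each peak. Each deposited peak has a fold, a ratio to the local background of its library. The deposited lists also give −log10 p and −log10 q, and a score equal to 10 times −log10 q rounded down, which was not used. These values are the authors' own and describe, rank or filter peaks.

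Peaks of equal start and end were counted as 1 region. Chromosome numbers follow the order of the chromosome records. Coverage was recovered as a whole number for 100% of peaks in each list, with a tolerance of 0.001 on −log10 p, and was tested on simulated data, as was the merging. Precision is limited by median summit coverages of 16 and 15 fragments. The chromosome span ends at its last control region. The regions named are the 8 strongest by mean fold rank, the 5 widest, the 5 with the most summits, the 5 longest runs, the 5 densest windows, the emptiest windows, and the longest gap of each chromosome, with chromosome ends and midpoints and the 50 strongest added after the values were seen. The regions and settings were chosen with earlier results of these data known. No test was run, since there is 1 group. The infested lists served only for the total of regions in the series. Terciles of fold were formed on 1 list at a time, not on the mean rank as first set, because sorting on the mean of both forces a negative correlation within a class. Python 3.11.15, numpy 2.4.6, pandas 2.3.3, scipy 1.17.1 and matplotlib 3.10.9 were used.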

Additional observations from a re-analysis of the deposited data

Results flagged for a closer look

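Peaks outside the nuclear chromosomes were set aside from the description, and the control lists hold signal there. Chloroplast and mitochondrial DNA is not packaged on histones. On the chloroplast genome there were 28 peaks in replicate 1 and 29 in replicate 2, with median folds of 3.91 and 4.36. Their median local background was 19.6 and 15.1 fragments, 8.06 and 7.51 times the genome background of the list, against 1.56 and 1.62 times at nuclear peaks. On the mitochondrial genome there were 37 and 31 peaks, with median folds of 3.25 and 3.30 and backgrounds 4.26 and 3.74 times the genome background. Unplaced scaffolds held 6 and 7 peaks with median folds of 5.39 and 5.53, at 1.33 and 1.12 times the genome background. Organelle peaks thus reached folds like those of the median nuclear region, and their cause was not tested.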

How the results depend on the processing

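Alternatives were run for 8 results. With −log10 q of at least 5, 996 regions were shared, 59.8% of a list on average, with a median width of 1069 bp, 17.5% with several summits, a median gap of 192272 bp, 4.82% within 5 kb of another, a rank correlation of fold of 0.64 and a coefficient of variation over windows of 0.89. With lists of equal length the median gap was 68702 bp and the correlation 0.51, and with an overlap of at least 50% of the shorter region the gap was 67649 bp. Under these 2 settings the other values with a spread between replicates moved by less than it, the counts of shared regions stayed within 1.5 times, and the correlation under the 50% overlap was 0.52, as reported. Taking all regions of 1 list, without replicate 1 or 2 in turn, gave 4671 to 5174 regions, median widths of 563 to 590 bp, 7.40 to 8.26% with several summits, median gaps of 40801.5 to 43692 bp, 11.4 to 12.4% within 5 kb and variation over windows of 0.47 to 0.50; single-list regions enter there by construction. The intersection of the calls had a median width of 534.5 bp, and 5.20% of regions had several summits in both lists. Gaps under 2 kb and under 10 kb took in 3.59% and 19.5% of regions. The correlation was 0.49 for the mean fold over summits and 0.50 for regions with 1 summit in both lists. Windows of 500 kb gave a variation of 0.68. Results on gene starts were not run, because the gene table used here is on another assembly. No paired analysis was possible because only 1 group was described. Summit coverages of 8 to 11 fragments limit the weakest decile of each list.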
